A study of Homo sapiens with 4 samples.

Results

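The genes described here encode the proteins of the nuclear pore and the RAN-dependent transport machinery, and they were measured by RNA-seq in prostate cancer (PCa) cells with and without knockdown of the RNA helicase DDX52. Members were the protein-coding genes whose symbols name a nucleoporin (NUP), an importin α or β (KPNA, KPNB), an importin (IPO), a transportin (TNPO) or an exportin (XPO), together with RAN, RANBP1, RANBP2, RANGAP1, RCC1, CSE1L, NUTF2 and TPR. This gave 55 genes of 60671 listed, of which 23 carry a NUP symbol. The rule itself uses no measured value, although it was set with earlier results of these data known. The 4 libraries came from 22RV1 and PC3, both established human prostate carcinoma lines, infected with lentivirus that carried a control short hairpin RNA (shCON) or one against DDX52 (shDDX52) and selected with puromycin. Cells of both arms therefore went through the same infection and selection. Each condition was sequenced as 1 library, so the spread between replicates is unknown, nothing below was tested, and every difference describes these libraries only.

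The nuclear pore is a channel through the nuclear envelope built from rings of nucleoporins around a central channel filled with flexible protein chains. Carriers of the importin and exportin families take cargo through it, and the small GTPase RAN sets their direction. RCC1 on chromatin loads RAN with GTP inside the nucleus, whereas RANGAP1, helped by RANBP1 and RANBP2, makes RAN hydrolyse GTP outside it. Importins release cargo when they meet RAN-GTP, exportins bind cargo together with RAN-GTP, and NUTF2 carries RAN-GDP back into the nucleus. Several members, such as the importin α KPNA2 and the exportin CSE1L, are known for high levels in dividing cells.

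Abundance was deposited in TPM (a library's transcript abundances scaled to a fixed total), which corrects for transcript length, so that levels can be compared between genes. Differences are given as the log2 ratio, log2((TPM + 1) / (TPM + 1)), with shDDX52 over shCON within a cell line, over genes that reached 1 TPM in one or both libraries compared. The pseudocount of 1 makes the change of low genes look smaller. A gene was counted as lower or higher when it differed at least 1.5-fold on this scale. TPM values do not show how many reads stand behind them, and no counting interval can be given. The 22RV1 libraries held DDX52 at 4.88 TPM (shCON) and 1.2 TPM (shDDX52), and the PC3 libraries at 9.20 and 2.07 TPM. The prostate kallikrein KLK2 had 32.6 and 23.1 TPM in 22RV1 and was at 0 in PC3 with either hairpin. By contrast, the keratin KRT7 stood at 8.39 and 19.9 TPM in 22RV1 and 2273 and 2083 TPM in PC3, shCON first. VIM, a mesenchymal marker known from PC3 cells, was at 12.6 TPM in PC3 shCON against 8.08 TPM in 22RV1 shCON. With shDDX52 it was at 66.7 TPM in PC3 (log2 ratio 2.31) and 5.57 TPM in 22RV1, so the PC3 libraries did not match on this marker. Genes annotated as rRNA or rRNA pseudogenes held between 0.0872% and 3.13% of the listed TPM, with the highest share in PC3 shDDX52. Nuclear protein-coding genes held 88.4% in PC3 shCON and 81.3% in PC3 shDDX52, against 85.0% and 83.7% in the 22RV1 libraries. The part of these shares in the differences below was not tested beyond a rescaling to nuclear protein-coding genes, whose result is given beside the members that it takes across the 1.5-fold threshold. In bulk RNA, fewer cells of a kind and less RNA per cell cannot be told apart.

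The members spanned more than 3 orders of magnitude on the TPM scale. In the shCON libraries, 51 members reached 1 TPM in 22RV1 and 53 in PC3. The members that stayed under 1 TPM in every library were NUP210L, a relative of NUP210, at 0.07 TPM or less, and KPNA5, an importin α, at 0.86 TPM or less. The most abundant member in 22RV1 cells was RANBP1, at 538 TPM with shCON, and the most abundant in PC3 cells was RAN, at 1224 TPM. Pore proteins had a median of 17.1 TPM in 22RV1 shCON and 14.1 TPM in PC3 shCON, and carriers a median of 23.8 TPM and 14.9 TPM. The highest pore protein was NUP210, a membrane-spanning nucleoporin, in 22RV1 shCON (98.8 TPM) and NUP62, which fills the central channel, in PC3 shCON (87.1 TPM). RANBP2, the large filament protein on the cytoplasmic face, was low at 2.18 to 3.93 TPM in the 4 libraries. Its 7 near-identical relatives of the RGPD family together held 3.13 to 7.57 TPM, so reads of this gene may be split between copies and its values are uncertain.

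**Figure D1:**
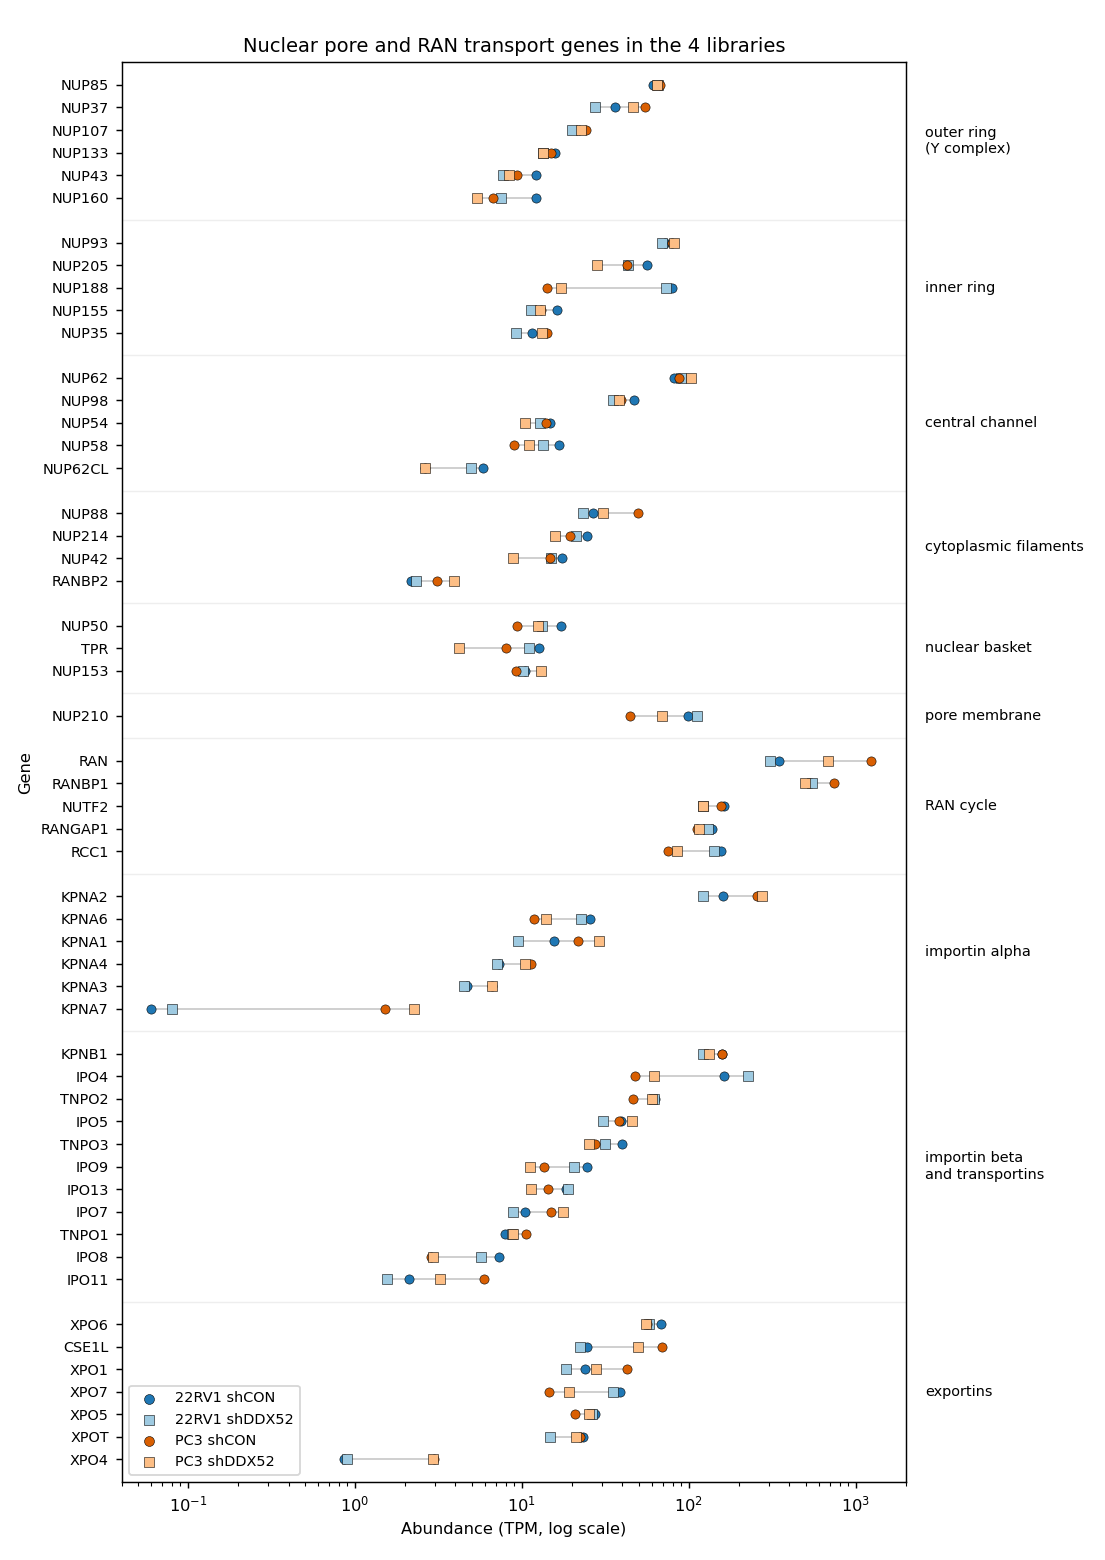
Abundance in TPM (log scale, x axis) of the 53 members with at least 1 TPM in a library, by gene (y axis) and role group, with circles for shCON and squares for shDDX52 in 22RV1 (blue) and PC3 (orange). RAN and RANBP1 lie furthest to the right in each library, and the 2 orange RAN points are 1224 TPM (shCON) and 678 TPM (shDDX52).

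With shDDX52, the members of 22RV1 cells were on the whole slightly lower, and those of PC3 cells spread to both sides. In 22RV1 cells, 43 of 51 members that passed the filter had a log2 ratio below 0, against 58.8% of all 14438 genes, and their median was −0.20, against −0.076 over all genes. Among protein-coding genes with at least 10 TPM, 58% were below 0. At the 1.5-fold threshold 4 members were lower, against 8.47% of all genes, and 0 higher, against 5.61%. At a lower threshold, a log2 ratio of at least 0.32 in size, 15 members were lower, against 22.6% of all genes, and 1 was higher, against 12.7%. In PC3 cells, 31 of 53 members had a log2 ratio below 0, against 53.5% of all 14262 genes, and their median was −0.029, against −0.036 over all genes. Among protein-coding genes with at least 10 TPM, 58.6% were below 0. There 7 members (13.2%) passed the 1.5-fold threshold downwards, against 9.84% of all genes, and 1 member (1.89%) upwards, against 8.95%. At the lower threshold the PC3 counts were 11 lower and 8 higher, against 22.5% and 19.7% of all genes. At 2-fold, 0 members were lower or higher in 22RV1, against 2.86% and 2.24% of all genes, and 0 in PC3, against 3.44% and 2.86%. The sign of the PC3 median depended on the scaling: it was 0.090 after rescaling to nuclear protein-coding genes, where the median of all genes moved by 0.12.

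The GC content of the transcripts moved with the 22RV1 values. The longest coding transcripts of the members had a median GC content of 43.8%, against 50.03% over 13075 expressed protein-coding genes. Across 51 members, the log2 ratio in 22RV1 and the GC content had a Pearson r of 0.47 and a Spearman rho of 0.30, and across 11866 protein-coding genes r was 0.29 and rho 0.35. These are descriptions across genes of the same 2 libraries, which are not independent replicates, and the part of GC content in the result was not tested. When each log2 ratio was centred on protein-coding genes of similar GC content (GC-bin centring), an alternative chosen after seeing the data, the 22RV1 median of the members was −0.030, with 32 of 51 members below 0 and 0 members at least 1.5-fold lower. The same centring gave a PC3 median of −0.015 and 6 members at least 1.5-fold lower. In PC3, the log2 ratio and transcript length had an r of 0.20 and a rho of 0.28 across 11858 protein-coding genes. Across 53 members these were 0.15 and 0.20. The longest coding transcripts of the members had a median length of 5207 bases, against 3262 over the expressed protein-coding genes. The part of length in the PC3 values was not tested, and no centring on length was run.

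The RAN cycle held the most abundant members, and RAN had the lowest log2 ratio of the set in PC3 cells. With a pseudocount of 0.1, TPR (−0.93) and IPO11 (−0.86) lay below RAN (−0.85). RAN (ENSG00000132341, chromosome 12 from 130871879 to 130877678 on the plus strand in GENCODE 29, GRCh38) had 346 TPM (shCON) and 305 TPM (shDDX52) in 22RV1 cells. The PC3 values were 1224 TPM (shCON) and 678 TPM (shDDX52). The PC3 control thus stood above the other 3 libraries, with log2 ratios of −0.18 (22RV1) and −0.85 (PC3). Among the 1524 genes with at least 100 TPM in a PC3 library, RAN ranked 34 from the lowest log2 ratio, and the median of these genes was −0.12. In PC3 cells its log2 ratio stayed between −0.85 and −0.72 under every alternative run. Its 9 listed pseudogenes held at most 0.68 TPM together in any library.

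RANBP1, which binds RAN-GTP and aids its hydrolysis, was nearly level in the 22RV1 libraries and lower with shDDX52 in PC3. It was 538 and 544 TPM in 22RV1, shCON first, and 743 and 495 TPM in PC3. The log2 ratios were 0.016 and −0.59. The PC3 value passed 1.5-fold narrowly, and was −0.46 with nuclear protein-coding scaling, which is under that fold. NUTF2, the importer of RAN-GDP, was lower in both lines, with 161 and 122 TPM in the 22RV1 libraries and 155 and 121 TPM in the PC3 libraries, shCON first. Its log2 ratios were −0.40 and −0.36. RANGAP1 and RCC1 are the enzymes that set the nucleotide state of RAN. RANGAP1 was 138 and 129 TPM in 22RV1 and 111 and 114 TPM in PC3, and RCC1 was 157 and 141 TPM in 22RV1 and 74.99 and 84.4 TPM in PC3.

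RAN and RANBP1 together made up 28.9% and 30.03% of the summed TPM of all members in 22RV1 shCON and shDDX52, and 50.8% and 38.5% in PC3 shCON and shDDX52. The summed TPM of the members was 3875 in PC3 shCON and 3048 in PC3 shDDX52. Of this difference of −827 TPM, RAN and RANBP1 accounted for −795 TPM and the other members for −31.6 TPM. In 22RV1 cells the sums were 3062 TPM (shCON) and 2827 TPM (shDDX52), and there RAN and RANBP1 accounted for −35.1 TPM and the other members for −200 TPM. On the deposited TPM, the summed difference of the members was therefore carried by the pair in PC3 cells and by the other members in 22RV1 cells. The sums were not rescaled to nuclear protein-coding genes, which held 88.4% of PC3 shCON and 81.3% of PC3 shDDX52. The other members held 1907.5 TPM in PC3 shCON and 1875.9 TPM in PC3 shDDX52, a smaller relative drop than that of this share. On that scaling their small PC3 difference would therefore lie above 0.

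**Figure D2:**
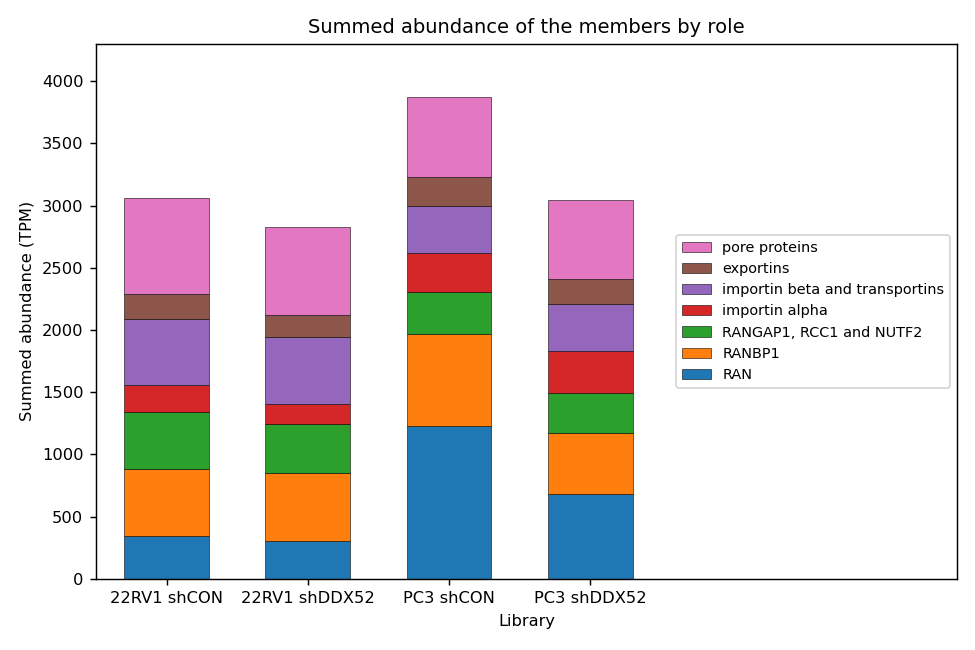
Summed abundance in TPM (y axis) of the 55 members in each of the 4 libraries (x axis), stacked by gene or role. The RAN and RANBP1 segments make up 50.8% of the PC3 shCON bar and 38.5% of the PC3 shDDX52 bar, and the bars reach 3062, 2827, 3875 and 3048 TPM from left to right.

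Importins α recognise the classical nuclear localisation signal and bridge cargo to importin β. In 22RV1 cells all 5 members that passed the filter had a log2 ratio below 0, against 58.8% of all genes. Their median was −0.18. With GC-bin centring, KPNA3 (0.11), KPNA4 (0.14) and KPNA6 (0.029) were above 0 in 22RV1. In PC3 cells 2 of 6 were below 0, against 53.5% of all genes, and 4 above, with a median of 0.17. The PC3 value of KPNA3 was −0.0038, and 0.11 with nuclear protein-coding scaling. KPNA1 lay furthest from 0 in 22RV1. In 22RV1 cells it had 15.7 TPM (shCON) and 9.47 TPM (shDDX52), against 21.5 TPM in PC3 shCON and 28.9 TPM in PC3 shDDX52. Its log2 ratios were −0.67 and 0.41, of which only the first passed 1.5-fold. It was −0.51 with GC-bin centring, under that fold. KPNA2, the form most abundant in these cells, had 161 and 122 TPM in 22RV1 and 256 and 275 TPM in PC3, with log2 ratios of −0.40 and 0.10. KPNA2 held between 73.4% and 82.7% of the importin α TPM in each library. KPNA6 was second in 22RV1 cells, with 11.9% and 13.6%, whereas KPNA1 was second in PC3 cells, with 6.94% and 8.56%. The order of KPNA1 and KPNA6 was thus not the same in the lines. KPNA7, a form known from early embryos, was 0.06 and 0.08 TPM in 22RV1 and 1.52 and 2.25 TPM in PC3.

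KPNB1 is the importin β that works with importins α, and the related IPO and TNPO carriers bind their cargo directly. Of these 11 genes, 8 were below 0 in 22RV1 cells and 6 in PC3 cells, against 58.8% and 53.5% of all genes. Their median log2 ratios were −0.23 and −0.13. KPNB1 was 158 and 122 TPM in 22RV1 and 157 and 132 TPM in PC3, with log2 ratios of −0.37 and −0.25. IPO4, a carrier of ribosomal proteins and histones, was higher with shDDX52. It (ENSG00000196497, chromosome 14 from 24180219 to 24188964 on the minus strand in GENCODE 29) had 161 TPM (shCON) and 225 TPM (shDDX52) in 22RV1 cells, and 47.5 and 62.1 TPM in PC3 cells. Its log2 ratios of 0.48 and 0.38 made it the only member past the lower threshold upwards in both lines, though it did not pass 1.5-fold in either. The gene AL136295.4 overlaps IPO4 on the same strand and was at 3.46 TPM or less. IPO11 was 2.10 and 1.55 TPM in 22RV1 and 5.96 and 3.24 TPM in PC3, with log2 ratios of −0.28 and −0.72. IPO11 lies across the gene KIF2A in GENCODE 29, and its values are low. TNPO2, a transportin that imports RNA-binding proteins, was 62.4 and 61.4 TPM in 22RV1 and 46.3 and 60.4 TPM in PC3, with log2 ratios of −0.022 and 0.38. TNPO1, the closest relative of TNPO2, was 7.96 and 8.74 TPM in 22RV1 and 10.6 and 8.89 TPM in PC3, with log2 ratios of 0.12 and −0.23. IPO5, which carries histones and ribosomal proteins, was 39.1 and 30.7 TPM in 22RV1 and 38.0 and 45.8 TPM in PC3. Its pseudogene IPO5P1 held 8.94 and 6.16 TPM in 22RV1 and 3.46 and 1.27 TPM in PC3.

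Exportins were below 0 in all 6 members that passed in 22RV1 cells and in 5 of 7 in PC3 cells, against 58.8% and 53.5% of all genes. In 22RV1, CSE1L (0.037), XPO5 (0.090) and XPO7 (0.066) were above 0 with GC-bin centring. In PC3, XPO4 (0.090), XPO6 (0.10) and XPOT (0.053) were above 0 with nuclear protein-coding scaling. XPO1, the exporter of leucine-rich signal proteins and of ribosomal subunits, was lower in both lines. XPO1 (ENSG00000082898, chromosome 2 from 61477849 to 61538626 on the minus strand in GENCODE 29) had 23.8 TPM (shCON) and 18.4 TPM (shDDX52) in 22RV1 cells, and 42.9 and 27.95 TPM in PC3 cells. The log2 ratios were −0.36 and −0.60. The PC3 value passed 1.5-fold as computed, but was −0.48 with nuclear protein-coding scaling. CSE1L, which returns importins α to the cytoplasm, was 24.5 and 22.4 TPM in 22RV1 and 69.2 and 49.6 TPM in PC3, with log2 ratios of −0.12 and −0.47. XPOT, the exporter of transfer RNA, was 23.2 and 14.8 TPM in 22RV1 and 22.3 and 21.1 TPM in PC3, with log2 ratios of −0.61 and −0.072. The 22RV1 value was −0.54 after centring on the median of all genes and −0.44 with GC-bin centring, both under 1.5-fold. XPO7 was 38.7 and 35.0 TPM in 22RV1 and 14.5 and 19.2 TPM in PC3, with log2 ratios of −0.14 and 0.38. XPO6, which exports actin with profilin and had the highest mean control level of the group, was 68.5 and 57.8 TPM in 22RV1 and 56.3 and 55.3 TPM in PC3.

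In the pore itself, the outer ring (Y complex) was mostly lower with shDDX52. Of its 6 members, 5 were below 0 in 22RV1 cells and all 6 in PC3 cells, with medians of −0.30 and −0.14, against 58.8% and 53.5% of all genes. With nuclear protein-coding scaling, NUP107 (0.030) and NUP85 (0.086) were above 0 in PC3. NUP107 was also above 0 in 22RV1 with GC-bin centring (0.042). The largest differences in 22RV1 were those of NUP160, at 12.2 and 7.51 TPM in 22RV1 and 6.74 and 5.35 TPM in PC3, and of NUP43, at 12.2 and 7.72 TPM in 22RV1 and 9.30 and 8.34 TPM in PC3. Both passed 1.5-fold in 22RV1 cells, with log2 ratios of −0.63 and −0.60, and neither did in PC3 cells. Both were under that fold in 22RV1 after centring on the median of all genes (−0.55 and −0.52) and with GC-bin centring (−0.41 for each). NUP85, the most abundant of the ring, stayed between 61.3 and 66.7 TPM in the 4 libraries. In the inner ring, all 5 members were below 0 in 22RV1 cells and 3 in PC3 cells, against the same shares of all genes. With GC-bin centring, NUP93 (0.15) was above 0 in 22RV1. Nuclear protein-coding scaling took NUP155 (0.098) and NUP35 (0.031) above 0 in PC3. NUP205 was 55.95 and 43.1 TPM in 22RV1 and 42.6 and 28.4 TPM in PC3, with log2 ratios of −0.37 and −0.57. NUP155, another scaffold protein of the inner ring, was 16.2 and 11.4 TPM in 22RV1 and 13.0 and 12.8 TPM in PC3. NUP93, the most abundant inner-ring member, was 72.0 and 68.9 TPM in 22RV1 and 78.9 and 81.3 TPM in PC3.

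The central channel, the filaments and the basket carry the flexible chains that bind passing carriers. In the channel, NUP98 was 46.9 and 35.0 TPM in 22RV1 and 39.1 and 38.3 TPM in PC3, with log2 ratios of −0.41 and −0.029. NUP62 was 81.4 and 89.9 TPM in 22RV1 and 87.1 and 103 TPM in PC3, with log2 ratios of 0.14 and 0.24. NUP62 shares its region with IL4I1 on the same strand, which was at 8.06 TPM or less, and with ATF5 on the other strand, which was at 30.7 and 49.4 TPM in 22RV1 and 58.03 and 85.4 TPM in PC3. Of the 4 cytoplasmic filament genes, 3 were below 0 in each line, against 58.8% of all genes in 22RV1 and 53.5% in PC3. The PC3 differences were wider. With GC-bin centring, NUP42 (0.014) and NUP88 (0.0067) were above 0 in 22RV1. NUP88, which anchors NUP214 on the cytoplasmic face, was 26.7 and 23.1 TPM in 22RV1 and 49.7 and 30.5 TPM in PC3, with log2 ratios of −0.20 and −0.68. NUP42, a small filament protein of mRNA export, was 17.3 and 14.9 TPM in 22RV1 and 14.7 and 8.89 TPM in PC3, with log2 ratios of −0.21 and −0.66. With nuclear protein-coding scaling, the PC3 values of NUP88 and NUP42 were −0.56 and −0.55, both under 1.5-fold.

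The 3 basket genes parted in PC3 cells. TPR, the long coiled-coil protein of the basket, was 12.7 and 10.99 TPM in 22RV1 and 8.04 and 4.18 TPM in PC3, with log2 ratios of −0.19 and −0.80. NUP153, which attaches TPR to the pore, was 10.4 and 10.1 TPM in 22RV1 and 9.21 and 13.1 TPM in PC3, with log2 ratios of −0.040 and 0.46. The PC3 value was 0.59 with nuclear protein-coding scaling, which is past 1.5-fold. NUP50, a mobile basket protein that helps importin α release cargo, was 17.1 and 13.2 TPM in 22RV1 and 9.38 and 12.4 TPM in PC3, with log2 ratios of −0.35 and 0.37. The PC3 shDDX52 library was therefore low for TPR and high for its neighbours NUP153 and NUP50 relative to its control. NUP210, the membrane nucleoporin, was 98.8 and 112 TPM in 22RV1 and 44.2 and 68.6 TPM in PC3. Its log2 ratio of 0.62 in PC3 made it the only member at least 1.5-fold higher there before rescaling, which added NUP153, and the value in 22RV1 was 0.18. In PC3 it stayed between 0.62 and 0.75 under every alternative run.

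**Figure D3:**
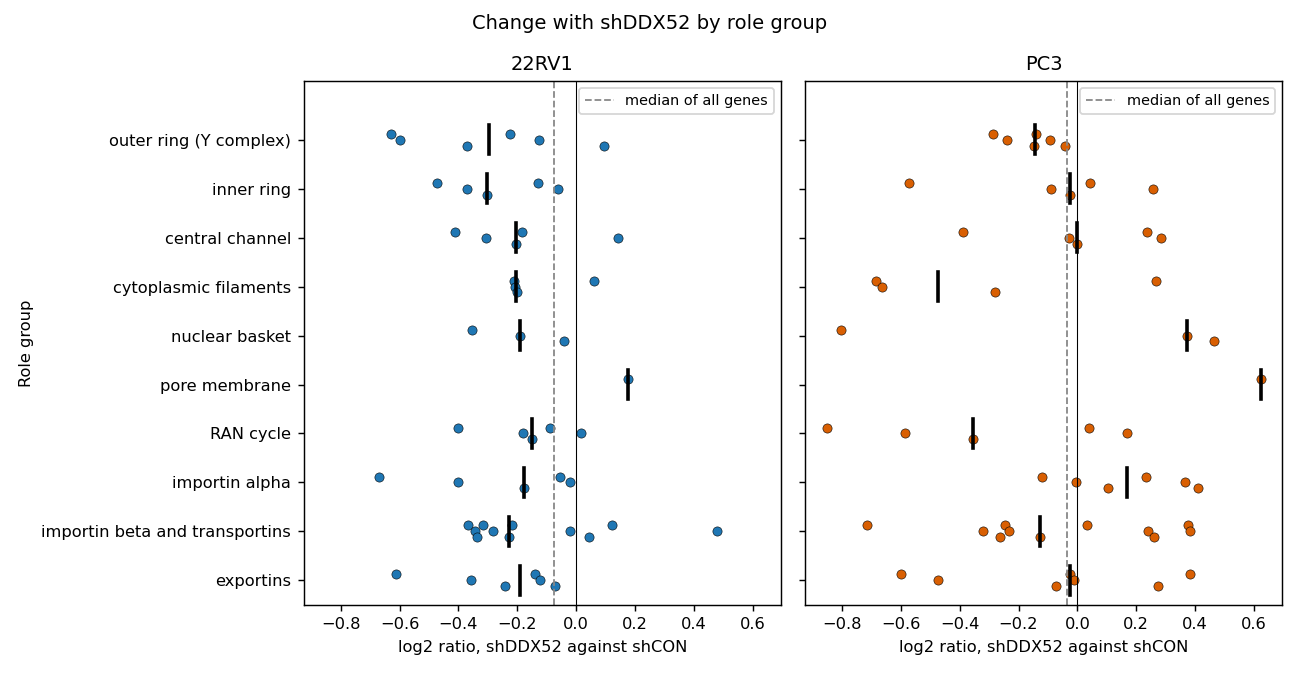
The log2 ratio of shDDX52 over shCON (x axis) of each member that passed the filter, by role group (y axis), in 22RV1 (left, 51 members) and PC3 (right, 53 members). Thick bars are group medians and the dashed line is the median of all genes (−0.076 and −0.036). Outside the pore membrane group, 22RV1 medians lie left of 0, whereas PC3 medians range from −0.47 in the cytoplasmic filaments to 0.37 in the nuclear basket.

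Over the 51 members that passed the filter in both, 26 were below 0 in both lines, 4 above 0 in both, 16 below 0 in 22RV1 and above 0 in PC3, and 4 the reverse, while NUP62CL had the same TPM in both PC3 libraries. At the lower threshold, NUP205, NUTF2 and XPO1 were lower in both lines and IPO4 was higher in both, and KPNA1 and NUP50 were lower in 22RV1 and higher in PC3. The same joint counts over all genes are not given here, so these counts have no background to be set against. They also depend on the processing. With nuclear protein-coding scaling 22 of 53 members were below 0 in PC3, and with GC-bin centring 32 of 51 were in 22RV1. At the lower threshold, GC-bin centring took NUP205 (−0.14), XPO1 (−0.20) and NUP50 (−0.13) inside it in 22RV1. Nuclear protein-coding scaling took NUTF2 (−0.23) inside it in PC3. IPO4 stayed past it under every alternative run, at 0.42 or more in 22RV1 and 0.38 or more in PC3. The log2 ratios of the lines had a Pearson r of 0.21 and a Spearman rho of 0.22 across the 51 members, and of −0.20 and 0.012 across 12175 genes. This is a description across genes, and a difference between the lines could not be tested with 1 library per condition. RAN, TPR, IPO11, NUP88, NUP42, XPO1 and RANBP1, the 7 members at least 1.5-fold lower in PC3, had 22RV1 log2 ratios between −0.36 and 0.016.

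**Figure D4:**
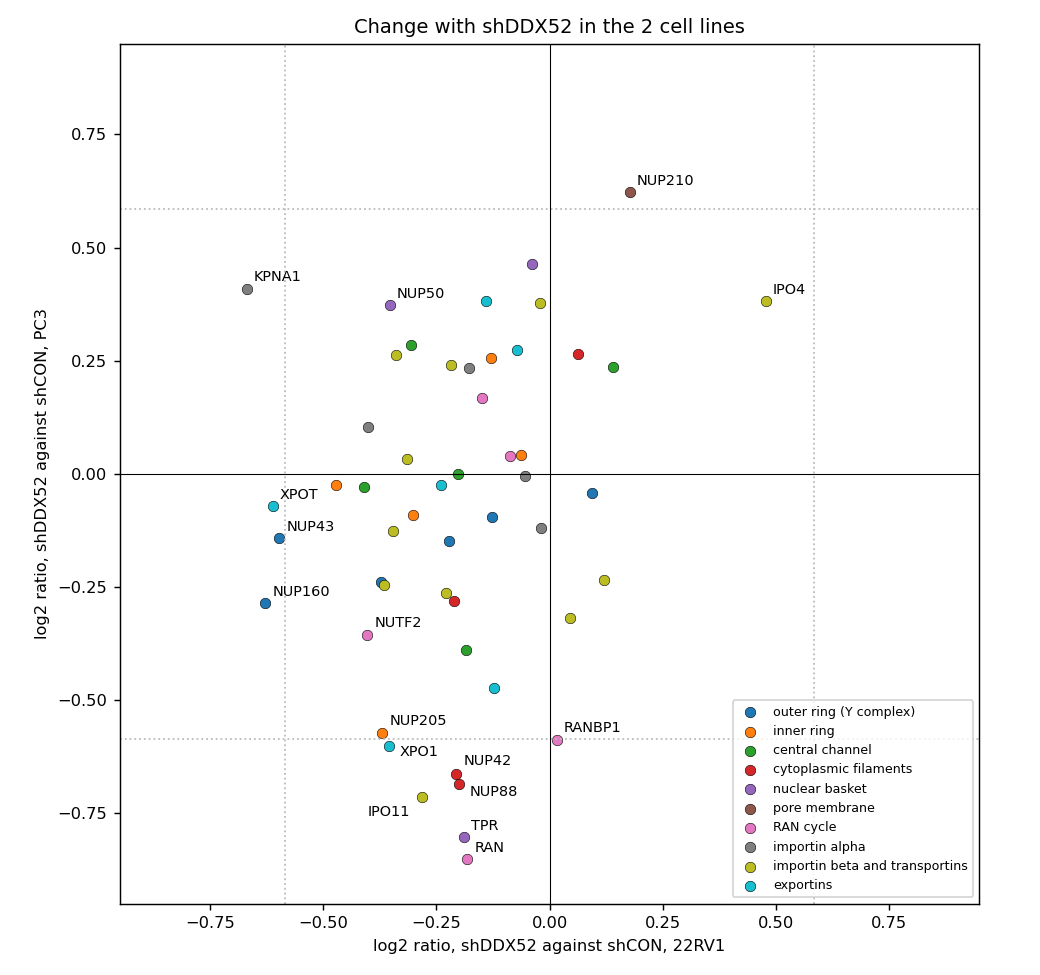
The log2 ratio of shDDX52 over shCON in 22RV1 (x axis) and in PC3 (y axis) for the 51 members that passed the filter in both, coloured by role group. Dotted lines mark 1.5-fold, and named points passed it in a line or passed the lower threshold, a log2 ratio of 0.32 in size, in both. RAN (−0.18, −0.85) and TPR (−0.19, −0.80) lie lowest, and IPO4 (0.48, 0.38) furthest right.

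More members passed 1.5-fold between the control libraries of the lines than with shDDX52 in either line. Of 53 members, 13 were lower at this fold in PC3 shCON than in 22RV1 shCON, against 32.2% of all 15727 genes, and 9 higher, against 29.3%. At 2-fold 7 were lower and 5 higher, against 21.3% and 19.9%, and at the lower threshold 19 were lower and 16 higher, against 40.9% and 36.9%. The log2 ratio was below 0 for 32 members, against 52.3% of all genes and 51.8% of protein-coding genes with at least 10 TPM. The median log2 ratio, PC3 over 22RV1, was −0.074, against −0.067 over all genes. These values use the same shCON libraries as the knockdown comparisons. NUP188, a large inner-ring scaffold, lay furthest down, at 79.6 TPM in 22RV1 against 14.1 TPM in PC3 (log2 ratio −2.42), and had 72.7 and 17.03 TPM with shDDX52. IPO4 (−1.74), XPO7 (−1.36), NUP210 (−1.14) and IPO8 (−1.12), which is an import carrier at 7.34 and 2.84 TPM, followed. With shDDX52, IPO8 had 5.70 TPM in 22RV1 and 2.93 TPM in PC3. RAN lay furthest up with the pseudocount of 1, with a log2 ratio of 1.82, and was 3.54 times as abundant in PC3. With a pseudocount of 0.1, KPNA7 lay further up (3.34). CSE1L (1.46), KPNA7, at 0.06 and 1.52 TPM, IPO11 (1.17) and XPO4 (1.09), an exportin at 0.86 and 2.97 TPM, came next. XPO4 had 0.89 and 2.94 TPM with shDDX52. Nuclear protein-coding scaling took NUP37 under 1.5-fold between the controls (0.59 to 0.53) and TNPO3 past it (−0.53 to −0.59). RAN and RANBP1 were at a ratio of 0.644 in 22RV1 shCON and 1.65 in PC3 shCON. By contrast, KPNB1, NUTF2, NUP85, NUP93 and NUP62, among other members, differed by at most 0.13 on the log2 scale between the controls. With GC-bin centring, NUP85 (0.37) and NUP62 (0.39) lay past the lower threshold.

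**Figure D5:**
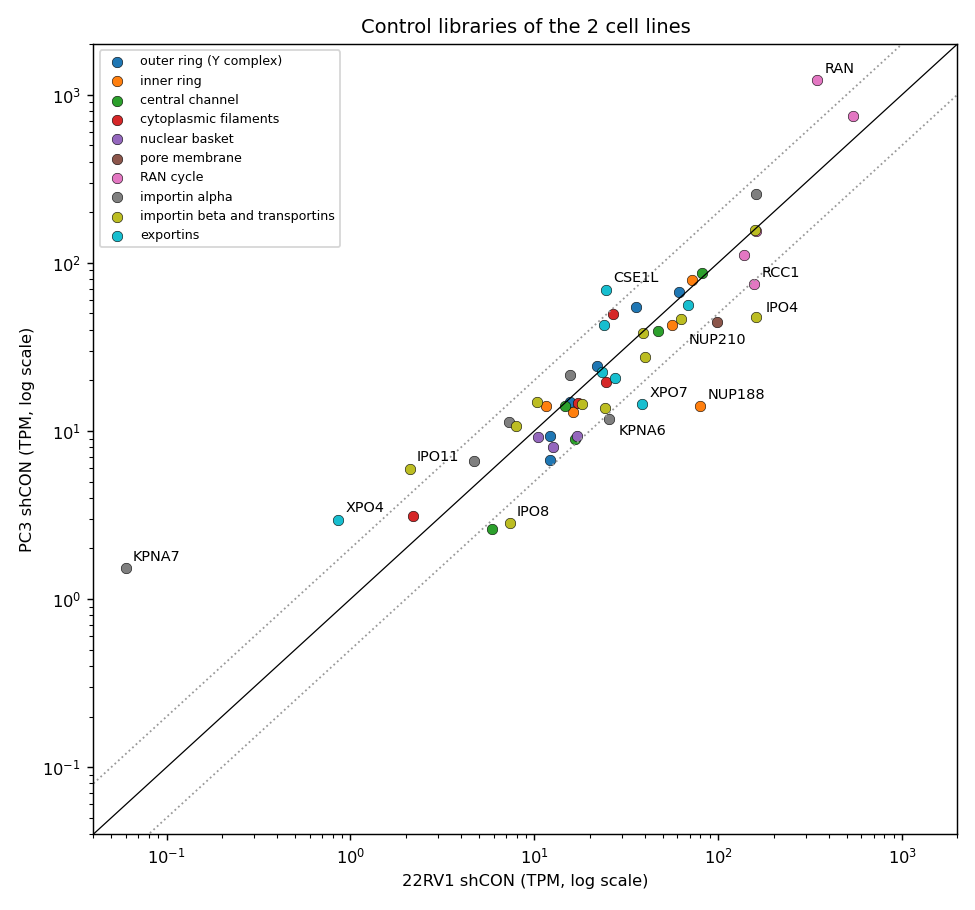
Abundance in TPM of 53 members in 22RV1 shCON (x axis) and PC3 shCON (y axis), both on log scales, coloured by role group. The solid line is equal abundance and dotted lines are 2-fold, and named genes have a log2 ratio with the pseudocount of at least 1 in size. RAN lies above the upper dotted line (346 and 1224 TPM) and NUP188 furthest below the lower one (79.6 and 14.1 TPM).

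Other genes of the same machinery were described through 4 lists with 59 genes in all. Unlike the members, the list genes were not recomputed under the alternatives. Of 13 further pore proteins, 10 were below 0 in 22RV1 and 5 in PC3, against 58.8% and 53.5% of all genes. Their medians were −0.13 and 0.094, against −0.076 and −0.036 over all genes. The membrane nucleoporins POM121 and POM121C were highest in both lines. POM121 was 56.4 and 63.3 TPM in 22RV1 and 15.9 and 30.4 TPM in PC3, with log2 ratios of 0.16 and 0.89, and POM121C was 46.9 and 54.9 TPM in 22RV1 and 19.4 and 31.4 TPM in PC3, with log2 ratios of 0.22 and 0.67. These are near-identical copies, so single values are uncertain, but their PC3 direction was that of NUP210. NDC1, a further membrane nucleoporin singled out after its values were seen, was 12.03 and 9.57 TPM in 22RV1 and 11.5 and 11.2 TPM in PC3. Furthest down in 22RV1 were SENP2, a SUMO protease at the pore, with log2 ratios of −0.71 and 0.24, and DDX19B, an mRNA export helicase, with −0.49 and 0.32. In PC3 the lowest were AHCTF1 (−0.41), which seeds pores on chromatin, and SEH1L (−0.12), a Y complex protein.

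Of 23 mRNA export genes, 17 were below 0 in 22RV1 and 19 in PC3, against 58.8% and 53.5% of all genes. Their medians were −0.088 and −0.24, against −0.076 and −0.036 over all genes, so the 22RV1 median lay near that of all genes. None was at least 1.5-fold lower in 22RV1 and 3 were in PC3, against the 8.47% and 9.84% of all genes. PHAX, the adaptor for export of small nuclear RNA, was 17.7 and 10.2 TPM in PC3 (log2 ratio −0.75), and THOC1, a subunit of the THO complex, was 20.2 and 12.2 TPM (−0.68). THOC2, the scaffold of the THO complex, was named after its values were seen and was 16.6 and 10.5 TPM in PC3 (−0.61). Nuclear protein-coding scaling moved the PC3 median of all genes by 0.12, so the PC3 count of 3 may depend on that scaling. In 22RV1 the lowest were ENY2 (−0.38) and SEM1 (−0.31), subunits of the TREX-2 complex, and the highest were THOC6 (0.31) and DDX39B (0.18). THOC3 (0.14) and DDX39B (0.050) were highest in PC3. Of 15 nuclear lamina and envelope genes, 10 were below 0 in 22RV1 and 8 in PC3, against the same 58.8% and 53.5% of all genes. Their medians were −0.17 and −0.027, and none passed 1.5-fold in either line. Of all genes, 8.47% were lower and 5.61% higher at this fold in 22RV1, and 9.84% and 8.95% in PC3. LMNB1 was 103 and 81.5 TPM in 22RV1 and 24.6 and 25.6 TPM in PC3, and LMNB2 was 176 and 206 TPM in 22RV1 and 111 and 133 TPM in PC3. TOR1AIP1 (−0.31) was also among the lowest and EMD (0.17), the gene of emerin, among the highest in 22RV1. In PC3 the lowest were SYNE2 (−0.52), a linker to the cytoskeleton, and TOR1A (−0.34), and the highest were SUN1 (0.35), a protein of the inner membrane, and LBR (0.30), the lamin B receptor. Of 7 other RAN binders and adaptors that passed the filter, 4 were below 0 in 22RV1 and 3 in PC3, and none passed 1.5-fold. The shares of all genes below 0 were again 58.8% and 53.5%, and the shares past 1.5-fold were those given for the lamina genes. In 22RV1 the lowest were RANBP9 (−0.52) and NMD3 (−0.24), the XPO1 adaptor of large ribosomal subunits, and the highest RANGRF (0.19) and RANBP10 (0.11). In PC3 the lowest were SNUPN (−0.51), the import adaptor of spliceosomal snRNPs, and RANBP9 (−0.50), and the highest RANBP10 (0.45) and RANBP3 (0.11).

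Because the study concerns c-Myc, the promoters were searched for the canonical E-box CACGTG, the letters that MYC and MAX are known to bind. It reads the same on both strands. RefSeq promoter windows on GRCh38.p14, which run from 250 bases before to 50 bases after an annotated start, were matched to 48 of the 55 members by symbol. Those without an entry were KPNB1, KPNA4, KPNA5, KPNA7, RANBP1, XPO7 and NUP43. The E-box was found in 9 of the 48 (18.8%), against 10.9% of 15314 protein-coding genes and 8.77% of all 27305 genes with a window. The 9 were RAN, RCC1, XPO1, IPO4, IPO7, TNPO2, KPNA3, NUP50 and NUP188. A match is a description of letters and not of binding. Shown are the windows of RAN and XPO1, which were lower in PC3 cells, and of IPO4, which was higher in both lines, written 5′ to 3′ on the gene's strand with the E-box in capitals.
RAN, chr12:130871816-130872115, plus strand: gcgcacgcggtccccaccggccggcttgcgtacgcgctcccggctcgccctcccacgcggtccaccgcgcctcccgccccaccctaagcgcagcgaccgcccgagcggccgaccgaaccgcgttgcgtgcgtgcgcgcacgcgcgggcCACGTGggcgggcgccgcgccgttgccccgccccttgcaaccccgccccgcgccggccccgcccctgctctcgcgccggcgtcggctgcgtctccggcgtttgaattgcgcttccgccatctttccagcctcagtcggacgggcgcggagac
XPO1, chr2:61537038-61537337, minus strand: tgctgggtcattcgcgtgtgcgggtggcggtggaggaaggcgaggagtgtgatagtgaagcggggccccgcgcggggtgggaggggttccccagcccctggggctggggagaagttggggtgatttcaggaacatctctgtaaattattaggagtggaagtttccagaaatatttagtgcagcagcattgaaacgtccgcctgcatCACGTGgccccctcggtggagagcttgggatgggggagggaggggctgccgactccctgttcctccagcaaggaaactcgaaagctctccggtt
IPO4, chr14:24188767-24189066, minus strand: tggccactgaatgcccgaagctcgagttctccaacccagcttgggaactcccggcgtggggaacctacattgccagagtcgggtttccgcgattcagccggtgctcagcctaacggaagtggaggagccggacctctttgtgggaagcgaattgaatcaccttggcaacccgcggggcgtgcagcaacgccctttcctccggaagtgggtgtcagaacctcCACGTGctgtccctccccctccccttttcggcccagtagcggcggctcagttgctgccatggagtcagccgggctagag

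The E-box begins 102 bases before the annotated start in the RAN window, 44 bases before it in the XPO1 window and 29 bases before it in the IPO4 window. XPO1 has another RefSeq start upstream of this one, nearer the 5′ end of the gene in GENCODE 29, and its window holds no CACGTG. RCC1, NUP50 and TNPO2 likewise each have another window without it. The members with an E-box did not all share a direction with shDDX52. In 22RV1 cells, 8 of the 9 were below 0, against 31 of the 37 members without one and 58.8% of all genes. The 9 had a median log2 ratio of −0.15 and a range from −0.36 (XPO1) to 0.48 (IPO4), and the 37 had a median of −0.21. In PC3 cells, 3 of the 9 were below 0, against 24 of the 38 members without one and 53.5% of all genes. The 9 had a median of 0.24 and a range from −0.85 (RAN) to 0.38 (IPO4 and TNPO2), and the 38 had a median of −0.057. A further motif, CCAAT, was searched on both strands and does not overlap the E-box letters. It was in 23 of the 48 members (47.9%) against 42.5% of protein-coding genes. A 10-base palindrome of the type bound by NRF1 was in 3 of the 48 (6.25%) against 1.96%.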

How the data were processed

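The 4 libraries, 1 for each cell line and hairpin, were each a separate RNA-seq measurement of cultured cells. The submitters' processing notes name CASAVA, HISAT2 and hg19, without versions or roles, and the quantifier and annotation are not given in the sources used here. The authors deposited a table of TPM for 60671 gene identifiers, with no counts, so depth is unknown and no interval could be given. TPM is relative to all listed genes and moves with the rRNA and mitochondrial share of a library. Whether counting used strand is not given, and 11 members overlap another protein-coding gene.

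The type, position, transcript length and GC content of each gene came from GENCODE 29 (GRCh38), which held 58453 of the identifiers. Positions refer to that annotation and not to the deposited table's build. Log2 ratios used a pseudocount of 1 over genes reaching 1 TPM in one or both libraries, and a gene counted as lower or higher at 1.5-fold. The computation was tested on simulated data. Python 3.11.15, numpy 2.4.6, pandas 2.3.3, scipy 1.17.1 and matplotlib 3.10.9 were used. No test was made, since each condition has 1 library, and a fit that takes the lines as replicates of each other was not run.

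Any member could be named. Values in all libraries were given for DDX52, for the RAN cycle, XPO1, CSE1L, KPNB1 and KPNA2, for the 6 lowest and 4 highest log2 ratios per line at 5 TPM or more, for the 5 most abundant, for the highest of each role, for members past the lower fold threshold in the same direction in both lines, and for the 5 furthest each way between controls. Further members were named beside these, after their values were seen. From the other lists the 2 furthest each way were named. The members and lists were chosen with earlier results of these data known. Alternatives were pseudocounts, expression filters, fold thresholds, TPM over nuclear protein-coding genes, centring on the median of genes, leaving out members with named copies and, added after seeing the data, centring within 20 bins of GC content.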

Additional observations from a re-analysis of the deposited data

Results flagged for a closer look

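KPNA1 had a log2 ratio of −0.67 in 22RV1 and 0.41 in PC3, and NUP50 had −0.35 in 22RV1 and 0.37 in PC3. Both were flagged because the libraries of the 2 lines lay past the lower threshold, a log2 ratio of 0.32 in size, from their controls in opposite directions. The difference between the lines was not tested, since each condition has 1 library. With GC-bin centring the values were −0.51 and 0.48 for KPNA1 and −0.13 and 0.41 for NUP50.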

How the results depend on the processing

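No paired analysis was possible because no condition has replicate libraries to pair, and a fit with the lines as replicates of each other was not run. Of 69 recomputed summary values, 46 moved little, 21 moved and 2 changed sign. The members' 22RV1 median stayed below 0 under every alternative run, and was −0.13 after centring on the median of genes and −0.030 after GC-bin centring, which was chosen after seeing the data. The PC3 median was 0.090 with nuclear protein-coding scaling and 0.0076 after centring on the median, both above 0, and −0.081 at 5 TPM or more. The median between the control libraries was −0.19 at 5 TPM or more, −0.13 with nuclear protein-coding scaling, −0.0065 after centring and −0.27 without members that have named copies. Nuclear protein-coding scaling left 3 members lower and 2 higher at 1.5-fold in PC3, and centring left 1 lower in 22RV1, where GC-bin centring left 0. At the lower threshold, a log2 ratio of 0.32 in size, 15 were lower and 1 higher in 22RV1, 11 lower and 8 higher in PC3, and 16 higher between controls. At 2-fold, 0 were lower in 22RV1, 0 lower and 0 higher in PC3, and 7 lower and 5 higher between controls. Of 931 recomputed single-member values, 24 crossed the 1.5-fold threshold and 46 changed sign, 0 of them past that threshold as reported. The cause of these shifts was not tested. TPM keeps no depth, so differences of members at a few TPM, such as IPO11, RANBP2 and TPR, may lie within counting error of unknown size.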
